A study of Felis catus with 20 samples.

Results

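The 50 most abundant transcripts of cat subcutaneous adipose tissue took up 30.8% ± 9.13 (SD, n = 20 libraries) of all reads counted on genes. They were selected on their measured level: in each library the count of a gene was divided by the sum over all genes and multiplied by 1000000, giving CPM (reads per 1000000 reads on genes), and the 50 genes of 21890 with the highest mean CPM over the 20 libraries were kept. High mean level is therefore what chose them and is not a finding. The labels of day length were not used in this ranking, but the mean covers short-day and long-day libraries together. High values on either day length can bring a gene into the list. Ranked by the mean of the short-day libraries, 46 of the 50 stayed, and by the mean of the long-day libraries, 42 stayed. Differences between day lengths are thus not fully independent of the choice.

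The RNA came from 10 healthy adult neutered male domestic cats in a crossover. Each cat was kept on short days (SD, 8 hr light and 16 hr dark) and on long days (LD, 16 hr light and 8 hr dark) and was fed to hold its body weight, and subcutaneous adipose tissue was biopsied at wk 12 of each period. By the labels, 6 cats began on LD and 4 began on SD. Each cat gave 1 library per day length, so the 10 SD-housed and 10 LD-housed libraries are pairs, and libraries are named here by day length and cat (SD6 is cat 6 on SD). All groups shared the sex, the neutering, the diet and the tissue. The amount of food was adjusted to hold body weight. The study reported that SD-housed cats needed less energy for this than LD-housed cats, so the amount fed differed with day length. The study's methods describe starting groups of equal size kept in separate rooms. That differs from the labels, which were followed here, and results by period or order depend on this choice. Which cat was in which room is not given in the sources used here, so room was not tested.

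Subcutaneous adipose tissue holds adipocytes, which store triglyceride and secrete hormones, beside stromal, vascular and immune cells, and a biopsy mixes the RNA of all of these. In bulk tissue fewer cells of a type and less RNA per cell cannot be told apart. In any tissue a small number of transcripts takes a large part of the reads, and since shares of reads add up to a fixed total, a rise in some lowers the shares of the rest. Ranks here are by share of reads and were not divided by transcript length. Of the 21890 identifiers in the table, 0 matched an entry of the gene reference used here, so the genes are given by identifier without a role, and the labelled tissue was not checked against its marker genes.

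Gene-counted reads were 15479104 to 20284720 in the SD libraries (median 17823255) and 15883641 to 21926358 in the LD libraries (median 17443826). The smallest count of any of the 50 genes in any library was 342, so counting error was small beside the differences between libraries described here. A pair of libraries stood apart from the rest, LD1 and LD6, in which 18 and 17 of the 50 genes were at least 100-fold below their highest library, where 0 genes were so in any other library. The main results are also given without cats 1 and 6, an alternative chosen after seeing the data. It leaves out the LD libraries lowest in these genes. Narrower ranges and smaller differences between SD and LD in such genes therefore follow from the choice.

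The list was top-heavy. The first gene held 3.05% of the reads on average, the first 5 held 11.3%, the first 10 held 15.5% and the first 25 held 23.9%. ENSFCAG00000002672 had the highest mean, 30537 CPM, and was the most abundant gene in 12 of the 20 libraries. ENSFCAG00000032058 was first in 4 libraries (SD5, SD9, LD4 and LD10), ENSFCAG00000011685 in 2 (LD1 and LD8), ENSFCAG00000030433 in SD3 and ENSFCAG00000014740 in LD6. The first place was therefore not held by 1 gene throughout.

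At the lower limit of the list the levels were close together. ENSFCAG00000000329, ENSFCAG00000004445 and ENSFCAG00000011906, at ranks 48 to 50, had mean levels of 2150, 2147 and 2146 CPM. ENSFCAG00000000828, ENSFCAG00000000419 and ENSFCAG00000022438, at ranks 51 to 53, had 2125, 2108 and 2032 CPM. These gaps were far below the spread between libraries, for example an SD of 1796 CPM for ENSFCAG00000011906. Of the 50 genes, 12 were in the 50 highest of every library and 38 were in those of 10 to 19 libraries. Each library's own 50 highest genes held between 27 of the listed genes (LD6) and 46 (SD8), and 66 genes outside the list reached the 50 highest of some library, 22 of them in 1 library. When the genes were ranked by the median CPM, 47 of the 50 stayed, and 46 stayed by the mean of the SD libraries and 42 by the mean of the LD libraries.

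**Figure D1:**
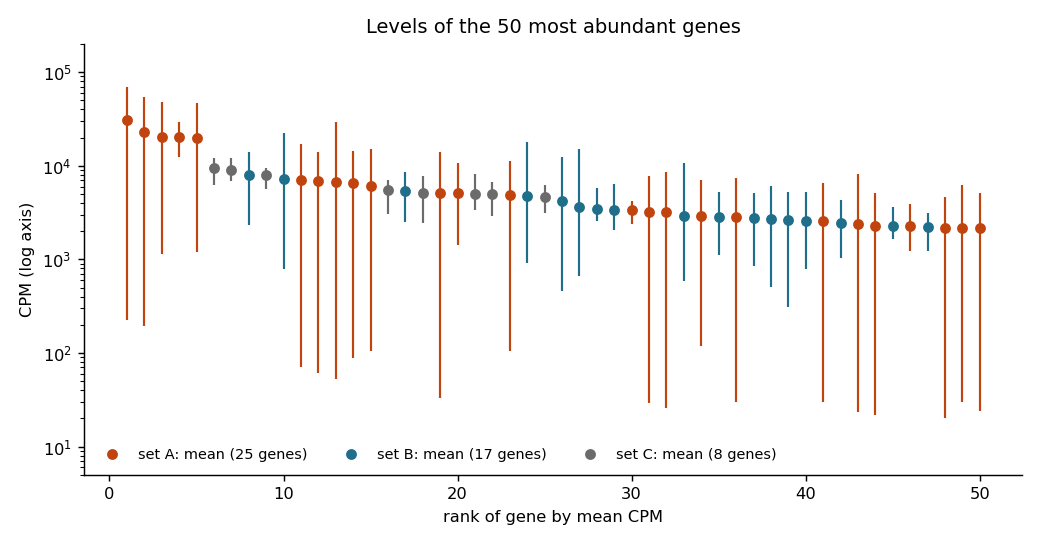
Mean CPM (points, log axis) and lowest to highest library (lines) of the 50 genes by rank of mean CPM, coloured by the 3 sets described in the text. The long lines of set A reach down to LD1 and LD6, while the lines of set C span at most 3.18-fold.

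The 50 genes fell into groups that varied very differently from library to library. The coefficient of variation (CV, the SD over the mean of CPM) ran from 13.0% to 113%, with a median of 64.3% against 35.4% for the 12897 genes with a mean of at least 1 CPM. It was under 30% for 13 genes, from 30 to 50% for 9 and over 50% for 28. The ratio of the highest to the lowest library was under 3-fold for 12 genes, 3-fold to under 10-fold for 10, 10-fold to under 100-fold for 10 and 100-fold or more for 18. Only LD1 and LD6 lay 100-fold below a gene's highest library, so without cats 1 and 6 none of the 50 could reach 100-fold. The widest ratio was then 69.3-fold, 22 genes were between 10-fold and 100-fold, and the median CV was 52.7%. The steadiest and the most variable genes were thus both found at the top of the same list.

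To describe which genes moved together, the genes were clustered on the Spearman correlation of their CPM over the 20 libraries and divided into 3 sets, a number chosen after the data were seen. The points of each correlation share library totals and come in pairs from the same cats, so no p-value is given. Set A had 25 genes, set B 17 and set C 8. The median correlation within sets was 0.83 in set A, 0.71 in set B and 0.70 in set C. Between sets A and B it was -0.74, and all 425 pairs were below 0. The medians of set C with both were near 0, but its pairs had both signs. With set A the median was 0.08 (pairs from -0.51 to 0.77) and with set B -0.11 (from -0.60 to 0.55). Over all pairs of the 50 genes the median was 0.065 (jackknife standard error over cats 0.086), with 413 pairs over 0.5 and 389 under -0.5, so strong pairs of both signs lay on either side of the low median.

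Because all genes share a library total, the opposite course of sets A and B was also examined on another scale. With levels divided by the reads on genes outside the 50, the median between A and B was -0.61 and 392 of the 425 pairs were below 0. On that scale set C was closer to set A, with a median of 0.60. Without cats 1 and 6 the median between A and B on the CPM scale was -0.71. The first principal component of log2 CPM held 90.3% of the variance of the 50 genes, and 82.9% without cats 1 and 6. Beyond the list, 3427 of 14195 other genes tested (24.1%) had a correlation under -0.8 with the sum of set A and 524 (3.69%) one over 0.8, and 2713 (19.1%) had one over 0.8 with the sum of set B. On the CPM scale a gene of unchanged level must go down where set A takes up more of the reads. Scaled to the reads outside the 50, the same counts were 592 (4.17%) and 914 (6.44%) for set A and 443 (3.12%) for set B.

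**Figure D2:**
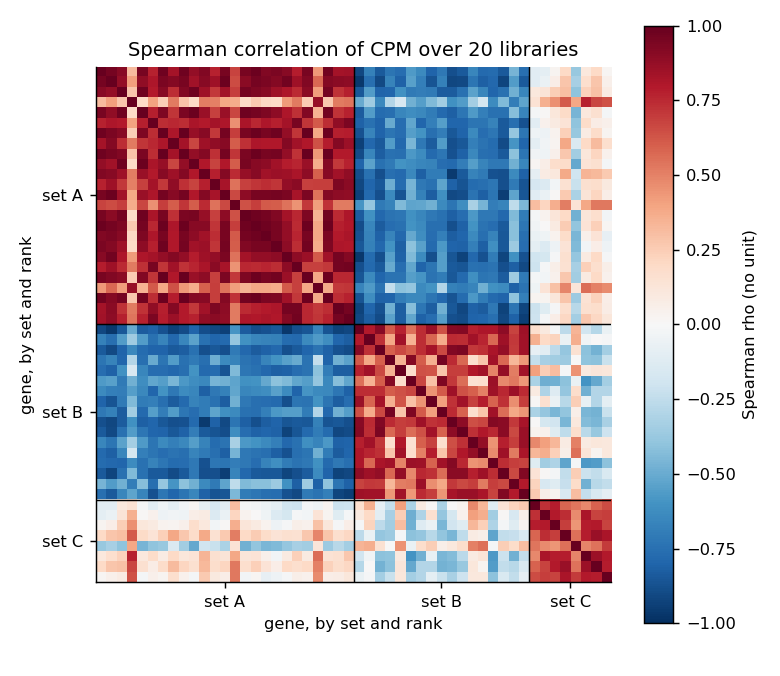
Spearman correlation of CPM over the 20 libraries for each pair of the 50 genes, ordered by set and then by rank (colour scale from -1 to 1). Set A is positive within itself and negative with all of set B. Set C is positive within itself and has pairs of both signs with the others.

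Set A held most of the reads and most of the variation. Its genes together took 19.3% ± 11.5 (SD, n = 20) of the reads, from 2.17% in LD6 to 41.6% in SD6, and the ratio of the highest to the lowest library was 221-fold for its median gene, or 13.6-fold without cats 1 and 6. That drop follows from leaving out LD1 and LD6, which were picked for their low values. Leaving out only cat 1 or only cat 6 left the ratio at 191-fold and 189-fold, so either LD library alone was enough for the wide range. All 18 genes that ranged over 100-fold were in this set.

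ENSFCAG00000002672, the first of the list, had 6158 CPM in its lowest SD library (SD9), a median of 38019 and a highest value of 69143 (SD6). On LD its lowest value was 226 CPM (LD1), its median 16823 and its highest 63532 (LD7). The groups overlapped over most of their range, and LD1 and LD6, at 226 and 274 CPM, lay far under the next lowest library. In LD1 this gene was at rank 639.

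ENSFCAG00000030433, at rank 2, followed it closely. It had 4909 CPM in its lowest SD library, a median of 30351 and a highest value of 54308, and on LD 196, 11811 and 42672 CPM. The lowest and highest libraries were the same as for the first gene. Its correlation with the summed CPM of the other 49 genes was 0.98, the highest of the list, followed by ENSFCAG00000012225 (0.97) and ENSFCAG00000002653 (0.97).

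ENSFCAG00000014170 and ENSFCAG00000006874, at ranks 3 and 5, had narrower ranges. ENSFCAG00000014170 ranged from 6389 (SD9) to 48315 CPM (SD6) on SD with a median of 24550, and from 1142 (LD6) to 37216 CPM (LD2) on LD with a median of 12664. ENSFCAG00000006874 ranged from 5387 to 46713 CPM on SD with a median of 24627, and from 1205 to 36200 CPM on LD with a median of 12138. Both overlapped widely between day lengths.

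The closest pair of all was ENSFCAG00000007746 and ENSFCAG00000005527, with a Spearman correlation of 0.994. Each ranged over 230-fold, yet the ratio of the first to the second stayed between 2.61 and 3.86. ENSFCAG00000007746 and ENSFCAG00000012225 came next at 0.992, with a ratio between 0.686 and 1.25. These are the 2 closest pairs of the list, and other pairs of set A were looser, with correlations down to 0.19.

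ENSFCAG00000009092 was the most variable gene, with a CV of 113% and a ratio of 549-fold. On SD it had 837 (SD9), 5614 and 20429 CPM (SD7) as its lowest, median and highest values. On LD these were 53.4 (LD6), 2098 and 29286 CPM (LD7). Cat 7 thus had the highest value on both day lengths. ENSFCAG00000011830, also in set A, had a CV of 89.5%, with 432, 3070 and 8174 CPM on SD and 23.3, 922 and 4146 CPM on LD. The gene at rank 32, ENSFCAG00000002653, had 8655 CPM in SD6 and 25.5 CPM in LD1.

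A few genes of set A stood at its edge. ENSFCAG00000032058, at rank 4, ranged only from 12333 (LD6) to 29605 CPM (LD7), with medians of 19670 on SD and 17925 on LD, and a division into 4 sets instead of 3 separated it and ENSFCAG00000032074 from the other 23. ENSFCAG00000002107 had the second lowest CV of the list, 13.7%, and ran from 2378 (LD6) to 4237 CPM (SD7).

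Set B moved against set A and was smaller in its share of reads. Its 17 genes took 6.36% ± 2.58 (SD, n = 20), from 2.13% in SD6, where set A was highest, to 10.8% in LD6, where set A was lowest. ENSFCAG00000030977, at rank 8, had the lowest correlation with the sum of the other 49 genes (-0.94), followed by ENSFCAG00000026434 (-0.91) and ENSFCAG00000003093 (-0.89). ENSFCAG00000030977 also formed the pairs of most opposite course, with ENSFCAG00000030433 (-0.968) and ENSFCAG00000011256 (-0.962). Its values were 2354 (SD6), 6278 and 12042 CPM (SD9) on SD and 3353 (LD7), 10152 and 13925 CPM (LD1) on LD, which overlapped.

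ENSFCAG00000014740, ENSFCAG00000004564 and ENSFCAG00000030892, 3 genes of set B with CVs of 93.0%, 103% and 90.7%, shared a pattern. ENSFCAG00000014740 had 14219 CPM in SD3 and 919 to 3810 CPM in the other SD libraries, and 18000 CPM in LD6 and 1845 to 9869 CPM in the other LD libraries. ENSFCAG00000004564 had 15133 CPM in SD3 against 666 to 2724, and 11977 CPM in LD6 against 1136 to 6722. ENSFCAG00000030892 had 8369 CPM in SD3 against 581 to 2333, and 10701 CPM in LD6. The same library was highest for all 3 genes on SD and the same on LD, and these libraries came from different cats. ENSFCAG00000014813, also of set B, was highest in SD3 (3732 CPM) and LD6 (5207 CPM) too, with a lower CV of 42.0%.

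Set C was the steady part of the list as a share of reads. Scaled to the reads outside the 50, its median correlation with set A was 0.60, and its spread on that scale was not examined. Its 8 genes took 5.16% ± 0.816 (SD, n = 20) of the reads, from 3.55% in LD6 to 6.69% in SD4, and all 8 were among the 50 highest of every library. ENSFCAG00000032061 had the lowest CV of the 50 genes, 13.0%, with 6586, 8253 and 9507 CPM on SD and 5659, 8056 and 9078 CPM on LD. ENSFCAG00000032065 (CV 15.6%) had 7721, 9613 and 11004 CPM on SD and 6187, 9347 and 11963 CPM on LD. ENSFCAG00000032077 (CV 18.2%) had 4603, 5774 and 7030 CPM on SD and 3023, 5646 and 6689 CPM on LD. For each of these genes the SD and LD ranges overlapped, and the lowest library was LD6.

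Most of the genes steadiest in CPM also stood together by identifier. In the consecutive run from ENSFCAG00000032048 to ENSFCAG00000032079, which has 32 genes, 9 belonged to the list. Of these, 7 were among the 9 listed genes with the lowest CV, and the CVs in the run went from 13.0 to 35.0%. The run was noticed after the values were seen. Its listed genes took 6.88% ± 1.08 (SD, n = 20) of the reads, from 4.54% to 9.12%, with a median correlation of 0.68 among themselves. The remaining 23 genes of the run had at most 1240 CPM on average, and most of them had 0.

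The share of variance between cats differed among the sets. For each gene the variance of log2 CPM was divided into a part between cats and a part between the libraries of a cat. The latter part includes any difference by day length or period, which no term removed. The estimated between-cat share falls below 0 where the libraries of 1 cat differed more than those of different cats. It was below 0 for 34 of the 50 genes, with a median of -29.3%. In set C it was 21.6 to 56.5%, in set A its median was -39.8% and in set B -19.8%. It was below 0 for 30 genes when cats 1 and 6 were left out, 13.8 to 70.7% in set C, and its medians were -15.8% in set A and 5.47% in set B. The highest values were those of ENSFCAG00000032058 (59.3%), ENSFCAG00000032052 (56.5%) and ENSFCAG00000032048 (50.7%), and the lowest those of ENSFCAG00000014170 (-53.1%), ENSFCAG00000014740 (-52.9%) and ENSFCAG00000004935 (-51.0%). The set with the lowest CVs was thus also the one in which all estimates of the between-cat share were above 0.

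The first comparison between day lengths concerned the share of reads held by the 50 genes together. On SD it was 20.3% in the lowest library (SD9), 35.4% at the median and 48.4% in the highest (SD6), with a mean of 34.2% ± 7.89 (SD, n = 10). On LD it was 16.6% (LD6), 25.1% and 42.3% (LD7), with a mean of 27.5% ± 9.40 (SD, n = 10). The difference was 6.76 percentage points (2-sided permutation test that does not use the pairing, 100000 resamples, p = 0.0985). The shared list can favour genes high on SD. Summed over each library's own 50 highest genes instead, the difference was 5.31 points (same test, p = 0.157). The share of the 50 listed genes was higher on SD in 6 of 10 cats, and the within-cat difference ran from -13.3 points (cat 5) to 31.9 points (cat 6), with an SD of 14.0. With the replicate block, an exact sign-flip test of the within-cat differences, p was 0.162. Without cat 5 the difference was 8.99 points (unpaired permutation p = 0.0399) and without cat 9 it was 8.74 points (unpaired permutation p = 0.0437). These were the only omissions of a single cat with p below 0.05, in a test that does not use the pairing. Without cats 1 and 6 the difference was 2.19 points (exact unpaired permutation p = 0.58). These cats had the largest within-cat differences, 18.2 and 31.9 points, so a smaller difference without them follows from the choice.

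Within a period the direction was the same. In the first period SD-housed cats were higher by 9.06 points (4 against 6 libraries, exact permutation p = 0.2) and in the second by 5.27 points (6 against 4, exact permutation p = 0.362). The within-cat difference was 5.12 points ± 10.8 (SD, n = 6) in cats that began on LD and 9.21 points ± 19.5 (SD, n = 4) in those that began on SD (exact permutation p = 0.676). Of the 20 libraries, 3 carry another letter in their column name (SD7, LD4 and LD6), and without them the difference was 3.89 points (exact permutation p = 0.363). By set, set A took 23.7% ± 9.70 on SD and 14.9% ± 12.0 on LD, set B 5.16% ± 1.76 and 7.57% ± 2.79, and set C 5.36% ± 0.689 and 4.97% ± 0.923 (SD, n = 10 each). With cats 1 and 6 left out, set A took 21.1% ± 8.13 on SD and 18.0% ± 11.4 on LD (SD, n = 8 each). The sets were formed from these libraries, so these means are a description.

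**Figure D3:**
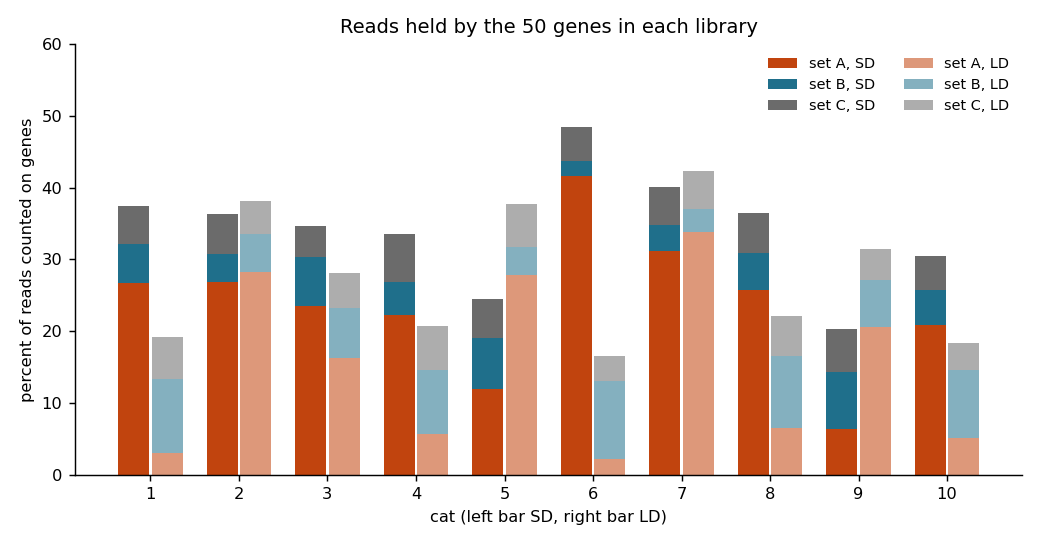
Percent of gene-counted reads held by the 50 genes in each library, stacked by set, for the 10 cats (dark bars SD, pale bars LD). Set A makes the difference between tall and short bars, from 2.17% in LD6 to 41.6% in SD6, and cats 2, 5, 7 and 9 are taller on LD.

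The combined share was lower in libraries with more reads on no annotated gene. These were 18.0 to 29.2% of all reads in the table on SD and 20.3 to 29.6% on LD. Pearson's r was -0.971 on SD and -0.935 on LD (n = 10 each), and Spearman's coefficient -0.988 and -0.952. Both measures are parts of the same table total, so that more reads on the 50 genes leave fewer for no gene, and no p-value is given. As a share of the reads outside the 50 genes, reads on no gene took 28.7 to 33.9% on SD and 29.0 to 33.3% on LD. With gene-counted reads, a measure of depth, r was 0.544 (permutation p = 0.103, adjusted 0.282) on SD and 0.465 (permutation p = 0.211, adjusted 0.282) on LD. Spearman's coefficient was 0.491 (permutation p = 0.154, adjusted 0.282) and 0.0667 (permutation p = 0.865, adjusted 0.865). Without the 2 libraries farthest from the median depth r was 0.121 on SD and -0.334 on LD, and within the first and second period it was 0.438 and 0.558. The 4 p-values were adjusted together (Benjamini-Hochberg). Gene-counted reads include those on the 50 genes and are the denominator of the share, so these p-values are no clean test of depth. With all entries of the table as denominator the combined share differed by 5.05 points between day lengths (permutation p = 0.123).

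**Figure D4:**
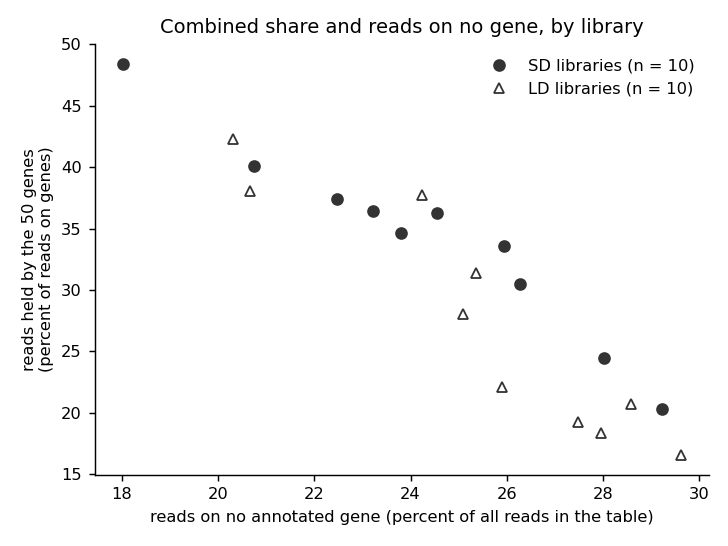
Percent of gene-counted reads held by the 50 genes against the percent of all reads in the table that fell on no annotated gene, for 10 SD libraries (filled circles) and 10 LD libraries (open triangles). The libraries descend from SD6 at the upper left to LD6 at the lower right, on axes that share the table total.

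Gene by gene, none of the 50 passed the threshold between SD and LD. In edgeR's quasi-likelihood test over 14245 genes, fitted without the pairing, 0 of the 50 had a raw p below 0.005, where 0.302% of all genes tested did. At a raw p below 0.05 there was 1 of the 50 against 5.18% of all genes. With the replicate block there were 2 of the 50 against 4.52% of all genes. The likelihood ratio test gave 2 (5.10% of all genes), the exact test 2 (4.89%) and DESeq2 3 (6.13%). The smallest Benjamini-Hochberg adjusted p of the 50 in the quasi-likelihood test was 0.783. These fold changes are on the scale of TMM (trimmed mean of M-values) factors, which hold the bulk of the genes level between libraries.

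The gene with the lowest p was ENSFCAG00000011685 of set B. It had 785 (SD6), 4836 and 8957 CPM (SD9) on SD and 1993 (LD7), 7208 and 22142 CPM (LD8) on LD as lowest, median and highest values. In 7 of 10 cats the SD library had the lower value, and LD8, LD1 and LD4 lay above every SD library while the rest overlapped. Its log2 fold change (SD over LD) was -0.94 ± 0.40 (standard error), with a raw p of 0.0288 in edgeR's quasi-likelihood test and an adjusted p of 0.783. Next among genes lower on SD were ENSFCAG00000004635, at -0.78 ± 0.40 (raw p = 0.0655), and ENSFCAG00000026434, at -0.35 ± 0.18 (raw p = 0.0690). These fits did not use the pairing. With the replicate block the same test gave -0.97 (raw p = 0.0209), -0.77 (raw p = 0.0379) and -0.30 (raw p = 0.158), in this order. ENSFCAG00000004635 had 461, 2978 and 6378 CPM on SD and 822, 4267 and 12458 CPM on LD, and ENSFCAG00000026434 had 1204, 2271 and 3523 CPM on SD and 1125, 3338 and 5195 CPM on LD. Both sets of values overlapped.

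Genes with higher estimates on SD had larger errors or smaller differences. ENSFCAG00000032064, a gene of set C with a low CV of CPM, had 6799, 9807 and 12042 CPM on SD. On LD it had 6937, 8246 and 10986 CPM, and 8 of 10 cats had the higher value on SD. Its log2 fold change was 0.30 ± 0.20 (raw p = 0.139). ENSFCAG00000011830 had the largest estimate, 1.19 ± 0.80 (raw p = 0.152), and ENSFCAG00000004935 had 0.96 ± 0.65 (raw p = 0.155). In the fit without the block these last estimates were 0.50 ± 0.64 and 0.23 ± 0.56 when cats 1 and 6 were left out. With the replicate block, which uses the pairing, the quasi-likelihood test gave 0.31 (raw p = 0.228) for ENSFCAG00000032064. It gave 2.18 (raw p = 0.0866) for ENSFCAG00000011830 and 1.63 (raw p = 0.121) for ENSFCAG00000004935. ENSFCAG00000004935 ranged from 707 to 7121 CPM on SD, median 4025, and from 120 to 4362 CPM on LD, median 1393. In the edgeR fit of all cats without the block each adjusted p-value was 0.783.

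The estimates within a set mostly pointed the same way, as its genes were grouped by their correlation. Of the 50 log2 fold changes 34 (68%) were positive, against 48.8% over all genes tested, and their median was 0.30 (jackknife standard error 0.20) against -0.0067. Ranked by the SD mean 46 of the 50 stayed, and by the LD mean 42. The choice of the genes can thus itself favour positive values, and the contrast with all genes is a description. All 25 genes of set A were positive, from 0.20 to 1.19 with a median of 0.87 and a median standard error of 0.76. In set B 16 of 17 were negative, with a median of -0.30. All 8 of set C were positive, with a median of 0.25. Scaling by library size alone moved the median of all genes to -0.17 and that of the 50 to 0.15, with 32 positive. Without cats 1 and 6 the median of the 50 was 0.037, with 34 positive, and 0 of the 50 had a raw p below 0.05, where 3.61% of all genes did.

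**Figure D5:**
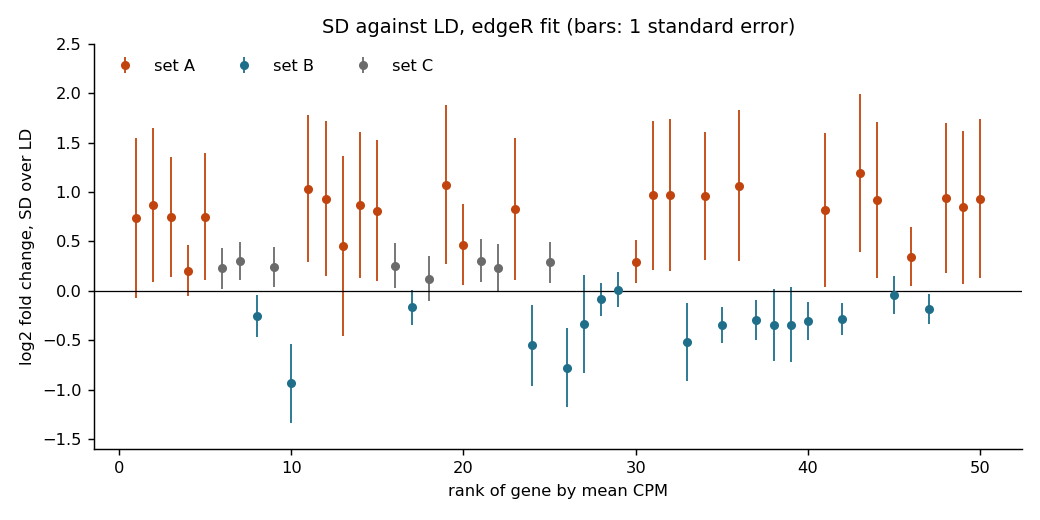
Log2 fold change (SD over LD) of the 50 genes from edgeR, by rank of mean CPM, with bars of 1 standard error and colours for the 3 sets. Set A lies above 0 with the longest bars, and ENSFCAG00000011685 at rank 10 is lowest, at -0.94.

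The choice of model mattered most for set A, where the replicate block also raised the estimates of ENSFCAG00000011830 and ENSFCAG00000004935. In limma voom, which averages log values, 15 of the 50 had a raw p below 0.05, where 8.02% of all genes did. Of these 14 were higher on SD, all in set A, with log2 fold changes of 1.72 to 2.32, and 1 was lower, in set B. The smallest adjusted p in limma voom was 0.621. Without cats 1 and 6, whose LD libraries were the lowest in set A, the count in limma voom was 0. A lower count for set A follows from that choice, and 3.55% of all genes then had a raw p below 0.05. The estimates of ENSFCAG00000011830 and ENSFCAG00000004935 then went from 2.26 to 0.92 and from 1.72 to 0.60, while that of ENSFCAG00000011685, the gene lower on SD, went only from -0.98 to -0.86 (raw p = 0.0634).

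The order of the periods was compared in the same way. In edgeR's quasi-likelihood test of the second against the first period, fitted together with day length, 0 of the 50 had a raw p below 0.005, where 0.541% of all genes did. At a raw p below 0.05 there were 3 against 6.64% of all genes, or 0 with the replicate block, where 6.00% of all genes passed. These were ENSFCAG00000014740 (log2 fold change 1.00, raw p = 0.0140), ENSFCAG00000004564 (1.11, raw p = 0.0261) and ENSFCAG00000030892 (0.87, raw p = 0.0294), the 3 genes that shared high values in SD3 and LD6, which were both second-period libraries. The smallest adjusted p of the 50 in edgeR was 0.723. Without cat 6 the number at a raw p below 0.05 was 0 (3.31% of all genes), and without cat 10 ENSFCAG00000014740 had a raw p of 0.00359. Of the 50 estimates, 10 were positive and 40 negative, with a median of -0.21 (jackknife standard error 0.29), and 50.3% of all genes were positive. With library size alone 20 were positive against 72.0% of all genes, and without cat 6 there were 25.

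The same 3 genes were the ones whose call between day lengths depended on 1 cat. Without cat 3, ENSFCAG00000014740 had a log2 fold change of -1.20 (raw p = 0.000686), ENSFCAG00000030892 one of -1.10 (raw p = 0.00201) and ENSFCAG00000004564 one of -1.21 (raw p = 0.00218). In that fit 0.472% of all genes had a raw p below 0.005, and all 3 had an adjusted p of 0.822 in edgeR's quasi-likelihood test. With all cats included their estimates were -0.55, -0.52 and -0.34, and without cats 1 and 6 they were -0.15, -0.13 and 0.02. The libraries SD3 and LD6 were their highest in each group.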

How the data were processed

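RNA from 20 subcutaneous adipose biopsies was sequenced on an Illumina instrument from one end. The authors aligned the reads to the Ensembl cat genome with TopHat and counted them per gene with HTSeq. They deposited raw counts per gene, with no filter or normalization applied, for 21890 genes and 5 summary entries. The submitters' processing notes also name CASAVA 1.8.2, TopHat2 2.0.8 and SAMtools 0.1.18. The summary entries (2 of which were 0 throughout) were left out of library sizes and tests. Reads on no gene were 18.0 to 29.6% of the table and reads without a unique place 2.42 to 4.88%. Reads of genes with near-identical copies may thus be missing.

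Each column was assigned to its sample through the cat's name and the period in the labels, which also give each cat's pair of libraries 1 replicate number, from which the pairing comes. The labels do not say whether biopsies were handled in batches.

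CPM were computed from the counts over all genes. Genes that reached 1 CPM in 1 or more libraries entered edgeR 4.0.16 (TMM factors, quasi-likelihood F test, SD against LD as the only term) in R 4.3.3. A gene was called at a raw p below 0.005, the threshold of the study's methods, and Benjamini-Hochberg adjusted p-values over all genes stand beside it. Permutation tests used scipy 1.17.1. Alternatives were edgeR's other tests, DESeq2 1.42.0, limma 3.58.1 (voom), other size factors and filters, the replicate block, the period and leaving out cats. The code was tested on simulated data.

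The 50 genes, the lists and the tests were chosen with earlier results of these data known. Named genes were the 10 highest, the 5 of largest and 5 of smallest CV, the 3 of lowest p in each direction, any called gene, ranks 48 to 53, the 2 closest and 2 most opposite pairs, and the 3 highest and 3 lowest by correlation with the sum of the others and by between-cat share. The genes ENSFCAG00000032074 and ENSFCAG00000014813, the 3 with high values in SD3 and LD6 as a group, and the identifier run were singled out after their values were seen.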

Additional observations from a re-analysis of the deposited data

Results flagged for a closer look

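In 6 of 70 groups of 10 libraries examined, 1 library lay far from the others by Dixon's test at the 95% level. Chance flags about 1 in 20 groups, but that rate does not apply here, because the genes examined include those named for their large CV. The values concern 4 genes, which are the 4 of largest CV. ENSFCAG00000009092 had 29286 CPM in LD7 and 53.4 to 8663 CPM in the other LD libraries. In SD3, ENSFCAG00000014740 had 14219 CPM (919 to 3810 in the other SD libraries), ENSFCAG00000004564 had 15133 CPM (666 to 2724) and ENSFCAG00000030892 had 8369 CPM (581 to 2333). In LD6, ENSFCAG00000014740 had 18000 CPM (1845 to 9869 in the other LD libraries) and ENSFCAG00000004564 had 11977 CPM (1136 to 6722). The last 3 genes are correlated with each other, so their flags are not separate events.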

How the results depend on the processing

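The number of the 50 genes at a raw p below 0.05 between SD and LD was 1, and 2 in edgeR's likelihood ratio test, 2 in its exact test, 3 in DESeq2, 15 in limma voom, 2 with the replicate block, 2 with the period, 2 with the replicate block and the period, 0 without cats 1 and 6 (also in limma voom), and 0 to 5 when 1 cat was left out. The share of all genes was 5.18% with all cats, 8.02% in limma voom, 3.55 to 6.13% in the other fits named and 2.75 to 12.3% when 1 cat was left out. The number at a raw p below 0.005 was 0 in every fit with all cats and 0 to 3 when 1 cat was left out (0.155 to 1.45% of all genes). Between periods the number at a raw p below 0.05 was 0 with the replicate block, where 6.00% of all genes passed. With 1 cat left out it was 0 to 4 (3.31 to 10.8% of all genes), and at 0.005 it was 0 to 1 (0.141 to 0.893%). The difference in combined share was 3.96 to 8.99 points when 1 cat was left out and kept its direction. With each library's own 50 highest genes it was 5.31 points. The median log2 fold change of the 50 was 0.13 to 0.39 when 1 cat was left out and 0.037 without cats 1 and 6, and between periods -0.39 to 0.0014. The median pairwise correlation was 0.24 scaled to reads outside the 50, 0.34 on TMM-scaled CPM, -0.042 in the SD libraries alone and 0.01 to 0.12 when 1 cat was left out. The correlation between sets A and B was -0.61 scaled to reads outside the 50, and the median range of set A was 13.6-fold without cats 1 and 6. The 3 genes of lowest p in each direction kept their direction and stayed above the raw p threshold of 0.005 in all alternative fits, 60 values with 1 cat left out and 90 others. Of the 50 genes, 5 changed direction between SD and LD somewhere, ENSFCAG00000009092, ENSFCAG00000031511, ENSFCAG00000004564, ENSFCAG00000029919 and ENSFCAG00000011395, with estimates no larger than their standard errors. The cause of these shifts was not tested. Shares of reads give no absolute amount of RNA, and depth was no limit for genes of this level.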
